A study of Mus musculus with 6 samples.

Results

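The genes described here are Trp53, which encodes the transcription factor p53, and 9 genes known as its direct targets, namely Cdkn1a, Mdm2, Ccng1, Trp53inp1, Phlda3, Sesn2, Aen, Zmat3 and Eda2r. The rule names them as p53 and its direct targets and uses none of their values, but they were picked with earlier results of these data known. All 10 were found by symbol among the 45706 genes of the table. All 10 passed the filter on low counts, with between 46 and 3352 counts in every library. The comparison addressed whether loss of Setd1b in hematopoietic stem and progenitor cells was accompanied by a p53 stress response.

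p53 is kept at a low level by the ubiquitin ligase Mdm2 and accumulates after DNA damage, oncogene activation or ribosomal stress. It then binds a response element in its target genes, whose products halt the cell cycle, favour apoptosis, repair DNA, adjust metabolism or feed back on p53 itself. In hematopoietic stem cells, p53 is known for a role in quiescence and in the loss of damaged cells.

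RNA came from LSK cells (Lin- Sca-1+ c-Kit+) sorted from the bone marrow of male mice labelled C57BL/6 (of C57BL/6J background in the study's methods), with 1 library per mouse. The 3 Ctrl mice were Setd1b HET (FD/+; RC/+) and the 3 cKO mice were Setd1b HOM (FD/FD; RC/+). FD is a conditional allele in which Cre removes the frameshifting exon 5, and RC is Rosa26-Cre-ERT2, a Cre that is active in nearly all tissues once tamoxifen is given. Both groups carried RC and received 4.5 mg tamoxifen per day by gavage on 4 days and, after a pause of 3 days, on another 2, and were analyzed 3 days after the last dose at 16 weeks of age (17 weeks for cKO mouse AH74). This schedule is the one in the labels, and the study's text gives a different number of doses. The control mice had therefore undergone Cre activity, tamoxifen and the recombination of 1 FD allele as well, and a p53 response shared by both groups cannot be seen in this design.

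Total counts lay between 13003573 and 21277519 per library, Ctrl mouse AI54 being the deepest. By the numbering of the libraries in the table's header they fall into 2 series of 3 libraries, the first with Ctrl mouse AI03 and cKO mice AI02 and AI55, the second with Ctrl mice AI54 and AI56 and cKO mouse AH74. Setd1b itself had 221, 194 and 223 CPM (the count scaled to the library total, with TMM factors) in Ctrl mice AI03, AI54 and AI56 and 272, 288 and 314 CPM in cKO mice AI02, AI55 and AH74. It was thus higher in all 3 libraries labelled cKO (log2 fold change 0.46, SE 0.073, edgeR adjusted p = 0.0015). Since these are counts per gene and the deletion removes a single exon, they do not check the deletion, and directions are given by the labels. The 10 genes listed for LSK identity summed to between 1527 and 1725 CPM in Ctrl and between 1575 and 1667 CPM in the libraries labelled cKO. Of these 10, 3 were higher at an edgeR adjusted p under 0.05 (the threshold), Procr and Mecom among them, and none was lower. This stood beside 3.88% higher and 3.79% lower of all genes tested. The log2 fold change was below 0 for 4 of the 10, beside 49.9% of all genes. Defining genes of mature cells (Cd79a, Ms4a1, Cd3d, Cd3e, Cd3g, Cd8a, Hba-a1, Ly6g, Camp and Ngp) stayed under 1 CPM in every library. The neutrophil list, mostly Mpo and Elane, genes also active in granulocyte-monocyte progenitors, fell from between 2387 and 3038 to between 279 and 484 summed CPM (4 of 4 tested genes lower), and the erythroid list from between 33.8 and 61.0 to between 13.9 and 19.3 (1 of 4 tested lower). The megakaryocyte list overlapped between the groups, with between 108.5 and 135.9 summed CPM in Ctrl and between 84.6 and 114.04 in cKO libraries (1 of 4 tested lower). The stromal list summed to between 33.98 and 40.9 CPM in Ctrl and between 47.8 and 60.1 in cKO libraries (2 of 3 tested genes lower, 1 higher, and Col1a1 and Lepr under 1 CPM), and the plasma cell list to between 80.9 and 95.3 and between 72.2 and 87.99 (1 of 3 tested lower). The B cell list (between 14.6 and 18.2 and between 16.3 and 20.03 CPM) and the T cell list (between 1.68 and 2.56 and between 2.99 and 3.79 CPM) had 1 tested gene each, neither past the threshold. Beside the counts of these lists, 3.79% of all genes tested were lower and 3.88% higher past the threshold. The part of the falls in the neutrophil and erythroid lists, and of the rise in the stromal sum, in the differences below was not tested.

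The response element bound by p53 consists of a pair of 10-base half-sites, in each of which the fourth base is C and the seventh is G. RefSeq promoter windows (GRCm38.p6, from 250 bases before to 50 bases after a transcript start) were available for 8 of the 10 genes, and 4 of them held a 20-base match with at most 3 mismatches to the p53 consensus. The allowance was set after matches had been seen. Of all 27025 genes with a window, 3.27% held such a match, so that it is uncommon but not confined to p53 targets. The matches are shown because these letters are the closest to the p53 consensus that the promoters hold, binding itself not having been measured, and capitals mark the central bases CNNG of each half-site:
Cdkn1a: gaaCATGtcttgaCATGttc
Ccng1: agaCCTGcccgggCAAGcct
Aen: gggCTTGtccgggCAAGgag
Trp53: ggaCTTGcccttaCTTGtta
Gtse1: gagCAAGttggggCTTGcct
The consensus is its own reverse complement, so that both strands are read at once. The Cdkn1a match lies on the plus strand at chr17:29090928-29090947, starting 51 bases before a transcript start, with 1 mismatch. The Ccng1 match, on the minus strand at chr11:40755462-40755481, starts 195 bases upstream and also has 1 mismatch. Aen carried its match in the 5′ UTR, on the plus strand at chr7:78895937-78895956, with 3 mismatches. The Trp53 match at chr11:69580284-69580303 on the plus strand lies upstream of the gene and has 3 mismatches as well. Gtse1, a direct target outside the 10 genes that is described below, had a match with 1 mismatch across its transcript start on the plus strand, at chr15:85859945-85859964. Only 35 of the 27025 genes (0.13%) had a match with at most 1 mismatch, and Cdkn1a, Ccng1 and Gtse1 were among them. No such match was found in the windows of Mdm2, Phlda3, Sesn2 and Eda2r, and Trp53inp1 and Zmat3 had no window.

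None of the 10 genes rose in the libraries labelled cKO. Of the 10, 4 fell at an adjusted p-value under 0.05, namely Zmat3, Ccng1, Phlda3 and Aen, and none was higher past this threshold. Over all 15184 genes tested with the quasi-likelihood method of edgeR, 7.67% were past the threshold, 3.79% lower and 3.88% higher, so that the share among the 10 genes, 4 of 10, was above this background on the lower side only. Without adjustment, 7 of the 10 had a p under 0.05, all of them lower, beside 22.9% of all genes in either direction and 11.5% on the lower side. DESeq2 called 4 of the 10 lower, beside 4.27% of the genes it tested. The fitted log2 fold change was below 0 for all 10 genes, compared with 49.9% of all genes tested, and their median was -0.27, compared with 0.00 over all genes. Counting the genes whose groups did not overlap gave 5 of 10 with all libraries labelled cKO below all Ctrl libraries, beside 13.4% of all genes, and 0 of 10 higher, beside 14.0%. The 5 were Ccng1, Phlda3, Sesn2, Aen and Zmat3. In bulk RNA, fewer cells with a transcript and less of it per cell cannot be told apart.

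**Figure D1:**
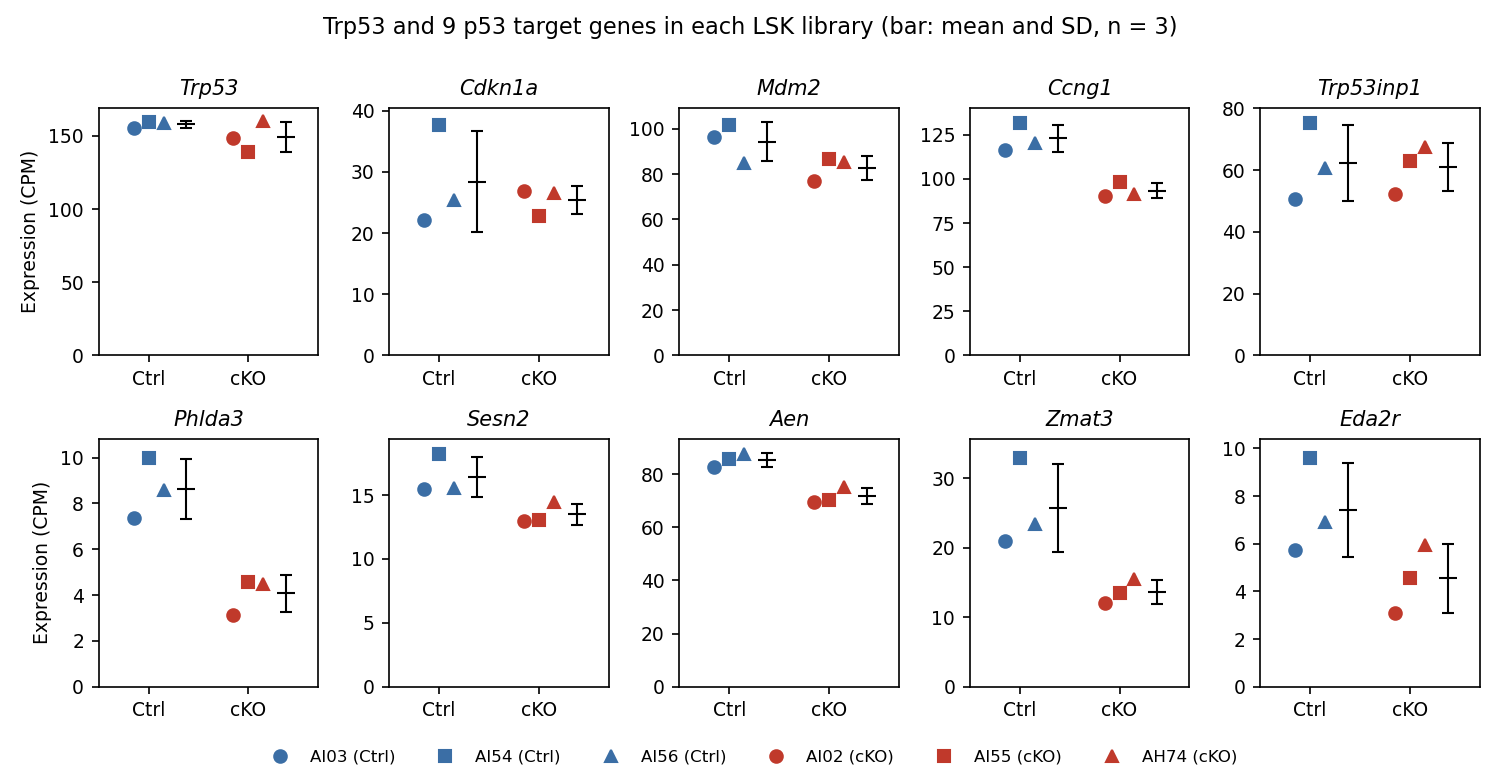
Expression in CPM of Trp53 and the 9 p53 targets in each of the 6 LSK libraries, with Ctrl mice in blue, cKO mice in red, 1 symbol per mouse, and the group mean and SD (n = 3) as bars. For Ccng1, Phlda3, Sesn2, Aen and Zmat3 the 3 libraries labelled cKO all lie below the 3 Ctrl libraries, whereas the groups overlap for the other 5 genes.

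Trp53 (ENSMUSG00000059552, chromosome 11 from 69580359 to 69591873 on GRCm38) had 155, 160 and 159 CPM in Ctrl mice AI03, AI54 and AI56. In cKO mice AI02, AI55 and AH74 it had 149, 139 and 160 CPM. The groups overlapped, and the log2 fold change of -0.08 (SE 0.067, edgeR adjusted p = 0.52) was not past the threshold. Its 95% interval ran from -0.22 to 0.06, so that the upper end allowed 1.04 times the Ctrl level. The counts were taken on the strand of the gene, which keeps Trp53 apart from Wrap53, a neighbouring gene in antisense orientation, whose log2 fold change was 0.02 (edgeR adjusted p = 0.96). The amount of p53 protein, which is mainly set after transcription, was not measured by these data.

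Cdkn1a (ENSMUSG00000023067, chromosome 17 from 29090979 to 29100722) encodes p21, an inhibitor of cyclin-dependent kinases and the target through which p53 halts the cell cycle. It had 22.1, 37.7 and 25.3 CPM in Ctrl mice AI03, AI54 and AI56 and 26.9, 22.7 and 26.5 CPM in cKO mice AI02, AI55 and AH74. Only AI54 stood above the other libraries, and these overlapped between the genotypes. Between the groups the log2 fold change was -0.17 (SE 0.16, edgeR adjusted p = 0.58), with a 95% interval from -0.52 to 0.17, and its upper end corresponds to 1.12 times the Ctrl level. The sign rested on 1 mouse, since the value was 0.09 without AI54 (edgeR adjusted p = 0.77). Within the library series the difference in mean log2 CPM was 0.16 in the first and -0.22 in the second.

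Mdm2 (ENSMUSG00000020184, chromosome 10 from 117688888 to 117710758), the ubiquitin ligase that p53 induces and that in turn degrades p53, had 96.2, 102 and 84.9 CPM in Ctrl and 76.8, 86.6 and 85.1 CPM in the libraries labelled cKO, in the same order of mice. AI56 lay within the range of the latter, so that the groups overlapped. A log2 fold change of -0.19 (SE 0.081) was obtained, with an unadjusted p of 0.035 and an edgeR adjusted p of 0.18.

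Ccng1 (ENSMUSG00000020326, chromosome 11 from 40748552 to 40755311) encodes cyclin G1, which acts in the same feedback by bringing a phosphatase to Mdm2. It had 117, 132 and 121 CPM in Ctrl mice AI03, AI54 and AI56 and 90.2, 98.2 and 91.7 CPM in cKO mice AI02, AI55 and AH74. Every library labelled cKO lay below every Ctrl library, and the spread within each group was small next to the distance between them. Ccng1 fell from 123 ± 7.78 to 93.4 ± 4.27 CPM (SD, n = 3 each), which gave a log2 fold change of -0.40 (SE 0.070, edgeR adjusted p = 0.0028). Within the library series the differences in mean log2 CPM were -0.31 and -0.46. Ccng1 stayed past the threshold under all 12 alternatives of processing, with adjusted p-values between 1.7e-05 and 0.019. Ccng1 and Cdkn1a, whose promoter matches have 1 mismatch each, though at different positions, therefore stood on different sides of the threshold. The difference between them was not tested.

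Zmat3 (ENSMUSG00000027663, chromosome 3 from 32334792 to 32366014) encodes a zinc finger RNA-binding protein that acts on splicing downstream of p53. It had 20.97, 32.9 and 23.4 CPM in Ctrl mice AI03, AI54 and AI56, and 11.99, 13.5 and 15.4 CPM in cKO mice AI02, AI55 and AH74. The groups did not overlap, with AI54 again the highest Ctrl library. With a log2 fold change of -0.93 (SE 0.16, edgeR adjusted p = 0.0026), Zmat3 was 1.90-fold lower in the libraries labelled cKO. The differences within the library series were -0.72 and -0.84. Without AI54 the fall was smaller, at -0.70, and still past the threshold (edgeR adjusted p = 0.0084), as it was under all 12 alternatives.

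Phlda3 (ENSMUSG00000041801, chromosome 1 from 135766119 to 135769136) encodes a pleckstrin homology domain protein that restrains the kinase Akt. It had 7.35, 9.96 and 8.57 CPM in Ctrl mice AI03, AI54 and AI56 and 3.15, 4.57 and 4.49 CPM in cKO mice AI02, AI55 and AH74. This was the largest relative fall among the 10 genes, with every library labelled cKO below every Ctrl library. Its log2 fold change of -1.09 (SE 0.22, edgeR adjusted p = 0.0059) corresponds to a 2.13-fold lower level, with a 95% interval from -1.55 to -0.63. The differences within the library series were -0.93 and -1.02, and the call was kept under all 12 alternatives. The values rest on between 47 and 209 counts per library, fewer than for Ccng1 or Aen.

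Aen (ENSMUSG00000030609, chromosome 7 from 78895854 to 78911209), an apoptosis-enhancing nuclease, had 82.5, 85.6 and 87.7 CPM in Ctrl mice AI03, AI54 and AI56. In cKO mice AI02, AI55 and AH74 it had 69.6, 70.2 and 75.2 CPM, without overlap between the groups. The fall was small, with a log2 fold change of -0.25 (SE 0.070), and it was only just past the threshold (edgeR adjusted p = 0.042). Without AI03, AI54, AI56, AI02 or AI55 it missed the threshold, with adjusted p-values of 0.051, 0.0925, 0.13, 0.14 and 0.16, although the log2 fold change remained between -0.29 and -0.23 with each mouse left out in turn. It also missed it with the library series as a covariate (-0.22, edgeR adjusted p = 0.0765).

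Sesn2 (ENSMUSG00000028893, chromosome 4 from 132492032 to 132510501) encodes sestrin 2, which restrains mTORC1 and is a target of both p53 and the stress factor ATF4. It had 15.5, 18.2 and 15.5 CPM in Ctrl and 12.999, 13.02 and 14.4 CPM in the libraries labelled cKO, again without overlap. The difference of -0.29 on the log2 scale had an unadjusted p of 0.046 and did not pass the threshold after adjustment (edgeR adjusted p = 0.21). For its relative Sesn1, picked out after its value had been seen, the log2 fold change was 0.11 (edgeR adjusted p = 0.49).

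Eda2r (ENSMUSG00000034457, chromosome X from 97333840 to 97377216), a receptor of the TNF receptor family for ectodysplasin A2, was the least abundant of the 10 genes. It had 5.74, 9.58 and 6.91 CPM in Ctrl and 3.08, 4.57 and 5.96 CPM in the libraries labelled cKO, in the order AI03, AI54, AI56 and AI02, AI55, AH74. Only cKO mouse AH74 reached into the Ctrl range. Its log2 fold change was -0.72 (SE 0.26, unadjusted p = 0.015, edgeR adjusted p = 0.11), and it passed the threshold under 1 of the 12 alternatives, the omission of the filter on low counts (edgeR adjusted p = 0.029).

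Trp53inp1 (ENSMUSG00000028211, chromosome 4 from 11156431 to 11174379) encodes a nuclear protein that promotes p53 phosphorylation and autophagy. Values of 50.8, 75.2 and 60.8 CPM in Ctrl and 52.4, 62.8 and 67.5 CPM in the libraries labelled cKO overlapped widely. A log2 fold change of -0.04 (SE 0.12, edgeR adjusted p = 0.89) had a 95% interval from -0.30 to 0.23, and the sign turned without AI54 (0.12) or without AI02 (0.06) and with the library series as a covariate (0.08).

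**Figure D2:**
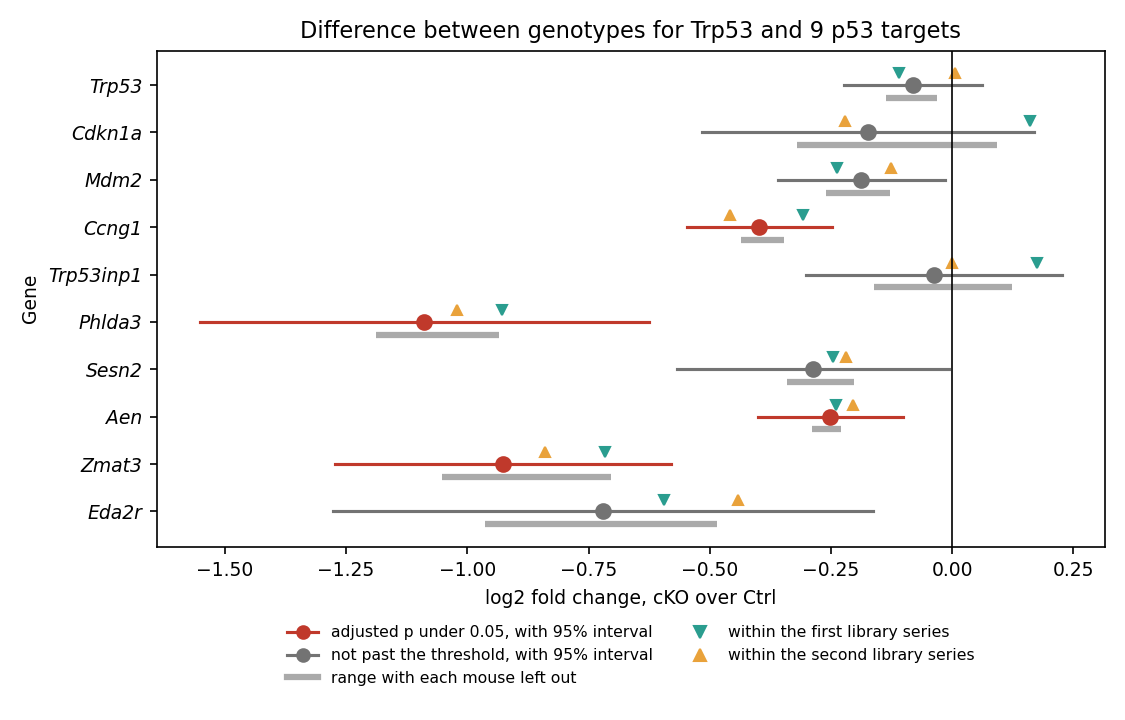
Log2 fold change of libraries labelled cKO over Ctrl for the 10 genes, with the 95% interval of edgeR's fit as a line, the range with each mouse left out as a grey bar, and the differences within the 2 library series as triangles. Zmat3, Ccng1, Phlda3 and Aen (red) were past the threshold and lay below 0 in every setting drawn, whereas the bars of Cdkn1a and Trp53inp1 cross 0.

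The 2 best known readouts of p53 activity, Cdkn1a and Mdm2, were thus not among the genes that fell, and the interval of neither reached above 1.12 times the Ctrl level. With 3 mice against 3, a two-sided exact permutation test cannot go below p = 0.1, which it reached for Ccng1, Phlda3, Sesn2, Aen and Zmat3. Ctrl mouse AI54 was the highest of the 6 libraries for 8 of the 10 genes, all but Trp53 and Aen, compared with 16.9% of all genes tested. AI02 was the lowest for 7 of the 10, but how often it was the lowest over all genes was not counted. On average over the 9 targets, log2 CPM relative to the Ctrl mean was 0.23 in AI54, -0.06 in AI56 and -0.18 in AI03. In AH74, AI55 and AI02 it was -0.30, -0.41 and -0.59, so that the highest library labelled cKO still lay below the lowest Ctrl library. The same average over the further direct targets described below overlapped between the groups. It was 0.07 in AI54, 0.01 in AI56 and -0.08 in AI03, and -0.06 in AH74, -0.16 in AI55 and -0.17 in AI02. Without AI54 the median log2 fold change of the 10 genes was -0.23 and 3 of them (Ccng1, Phlda3 and Zmat3) remained past the threshold. AI54 was also the deepest library, and the part of depth in these values was not tested.

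Levels can be compared between genes per exon length, as RPKM (CPM per 1000 exon bases of the deposited gene models). In Ctrl, Trp53 was the highest with 39.0 ± 0.59 RPKM (SD, n = 3), followed by Ccng1 with 34.99 ± 2.22, Mdm2 with 18.6 ± 1.68 and Aen with 14.99 ± 0.46 RPKM. Cdkn1a (12.8 ± 3.70 RPKM) and Trp53inp1 (9.62 ± 1.89 RPKM) came next, and the ranges of Aen and Cdkn1a, and of Cdkn1a and Trp53inp1, overlapped. Phlda3 (5.53 ± 0.84 RPKM) and Sesn2 (4.72 ± 0.45 RPKM) overlapped as well, and Zmat3 (2.25 ± 0.55 RPKM) and Eda2r (1.26 ± 0.33 RPKM) had the lowest levels. In the libraries labelled cKO, Phlda3 at 2.61 ± 0.51 RPKM stood below Sesn2 at 3.88 ± 0.24 RPKM, which turned their order in the Ctrl means. The falls past the threshold were thus found across the range of levels, from Ccng1 near the top to Zmat3 near the bottom.

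**Figure D3:**
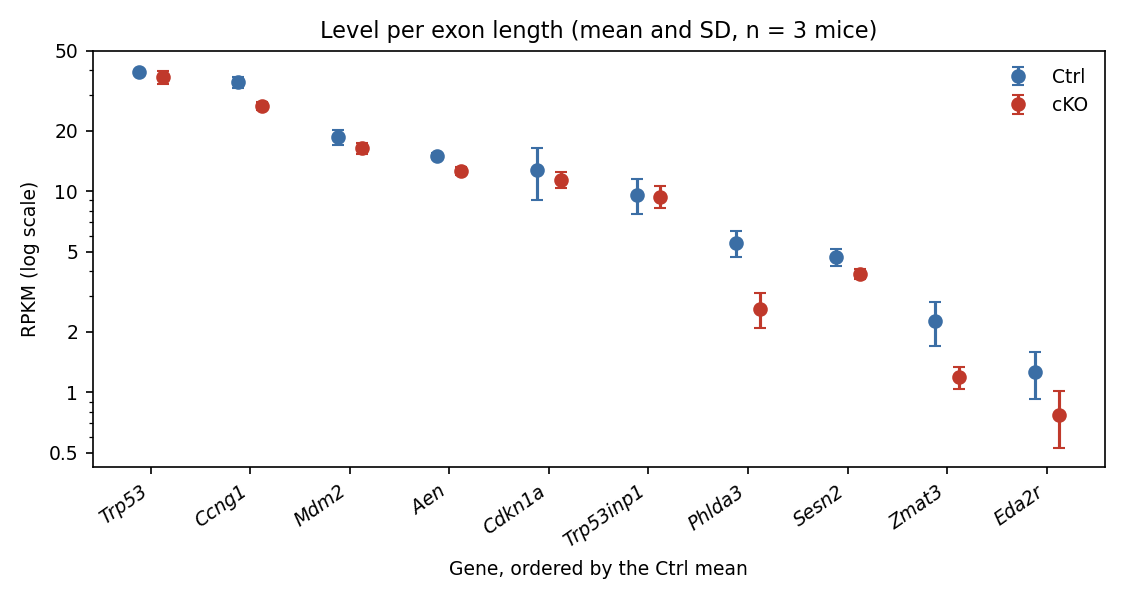
Mean and SD (n = 3 mice) of RPKM on a log scale for the 10 genes in Ctrl (blue) and in the libraries labelled cKO (red), ordered by the Ctrl mean. Levels ran from 39.0 RPKM for Trp53 to 1.26 RPKM for Eda2r in Ctrl, and the distance between the groups was widest for Phlda3 and Zmat3.

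A list of 42 further genes known as direct targets, of which 40 could be tested, was followed beside them. Whether p53 acts on each of them in these mouse cells was not tested, and Ddb2 had no promoter window. In this list 3 genes fell past the threshold (Steap3, Gtse1 and Fdxr) and 1 rose (Ddb2), beside 3.79% and 3.88% of all genes. The log2 fold change was below 0 for 27 of the 40, with a median of -0.13, beside 49.9% and 0.00 over all genes. Steap3, a metalloreductase of endosomal iron uptake, had 38.1, 33.3 and 43.6 CPM in Ctrl and 18.6, 21.5 and 19.3 CPM in the libraries labelled cKO, without overlap. Its log2 fold change was -0.95 (SE 0.12, edgeR adjusted p = 1.4e-04), a size close to that of Zmat3. Gtse1, a microtubule-associated protein of G2 phase that limits p53, had a log2 fold change of -0.43 (edgeR adjusted p = 0.016), and Fdxr, the mitochondrial ferredoxin reductase one of -0.53 (edgeR adjusted p = 0.017). Ddb2, which recognizes DNA lesions in nucleotide excision repair, rose from 12.2 ± 0.83 to 19.2 ± 1.99 CPM (SD over 3 mice each). This rise of 0.65 on the log2 scale (edgeR adjusted p = 0.0066) was seen without overlap between the groups. Steap3 and Ddb2 kept their calls under all 12 alternatives. Of the 3 falls, only that of Steap3 was left without AI56 or without AI55. Trp73 had no count in any library, where a count of 0 allows up to 3, and Gls2 stayed under 1 CPM.

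Calls were also counted by promoter match over all genes. Of 371 genes tested that held a match within the limit, 19 were lower past the threshold (5.12%) and 17 higher (4.58%), and their median log2 fold change was 0.00. Among genes with a window and no match, 4.15% were lower, and the share of these that was higher was not counted. Over all genes tested, with or without a window, 3.88% were higher. Of the further targets, 33 had at least 1 window and 9 of these held a match, beside 3.27% of all genes with a window.

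Of the genes that act on p53, 1 of 19 tested with edgeR was past the threshold, beside 7.67% of all genes, and their median log2 fold change was 0.01. DESeq2 called 1 of them lower (Mdm4) and 2 higher (Hipk2 and Crebbp), beside 4.27% and 3.83% of the genes it tested. The gene called by edgeR, Hipk2, a kinase that phosphorylates p53, rose from 171 ± 6.07 to 233 ± 16.9 CPM (SD over 3 mice each), 0.45 higher on the log2 scale (SE 0.068, edgeR adjusted p = 9.3e-04). It was past the threshold under all 12 alternatives. Mdm4, the relative of Mdm2 that masks the activation domain of p53, showed no overlap between the groups, being lower in cKO by a log2 fold change of -0.22. It missed the threshold with edgeR (adjusted p = 0.065) and passed it with DESeq2 (adjusted p = 0.030) and under 3 of the 12 alternatives in all. Mdm4 and Crebbp were picked out after their values had been seen. Cdkn2a, whose product Arf blocks Mdm2, had at most 2 counts in a library.

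Cell cycle genes that p21 represses through the DREAM complex were examined next. Of 24 such genes, 2 fell past the threshold and none rose, beside 3.79% lower and 3.88% higher of all genes, and the median log2 fold change was -0.07. Without adjustment, 9 of the 24 had an edgeR p under 0.05, 7 lower and 2 higher. Over all genes this share was 22.9%, and 11.5% on the lower side. The groups did not overlap for 6 genes lower in cKO and 1 higher, beside 13.4% and 14.0% of all genes. E2f1, the transcription factor of S phase entry, fell from 52.0 ± 0.55 to 41.5 ± 0.43 CPM (SD over 3 mice each), with a log2 fold change of -0.33 (edgeR adjusted p = 0.019). Mcm5, a subunit of the replicative helicase, had 343, 347 and 361 CPM in Ctrl but 171, 330 and 155 CPM in cKO mice AI02, AI55 and AH74, so that its log2 fold change of -0.68 (edgeR adjusted p = 0.042) rested on 2 of the 3 mice, and DESeq2 did not call it (adjusted p = 0.29). When mice were left out in turn, E2f1 was past the threshold only without AI03 and Mcm5 only without AI55.

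Of the other inhibitors of cyclin-dependent kinases, all 4 that could be tested had log2 fold changes above 0, with a median of 0.44, and 3 rose past the threshold, beside 50.1% above 0 and 3.88% higher past the threshold over all genes. Cdkn1c (p57), known for quiescence of hematopoietic stem cells, had 1.91, 2.67 and 2.69 CPM in Ctrl and 4.36, 5.27 and 6.31 CPM in the libraries labelled cKO (log2 fold change 1.12, SE 0.26, edgeR adjusted p = 0.017). Cdkn1b (p27) rose by 0.32 (edgeR adjusted p = 0.031) and Cdkn2c (p18) by 0.48 (edgeR adjusted p = 0.048). With 1 mouse left out the number past the threshold was 2 without AI03 or AI02, 1 without AI54, AI56 or AI55, and 0 without AH74, and DESeq2 called 2 of the 3. The difference between these genes and Cdkn1a was not tested.

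The ATF4 response shares Sesn2 with p53. Of 12 genes tested, 2 fell and 1 rose past the threshold, beside 3.79% and 3.88% of all genes, and the median log2 fold change was 0.01. The number that rose was 4 without the filter on low counts, 2 without AI03 and 0 without AI56, AI55 or AH74, and only 1 gene was left as lower without AI55. Asns, asparagine synthetase, fell from 22.3 ± 1.41 to 13.7 ± 2.23 CPM (SD over 3 mice each), with a log2 fold change of -0.70 (edgeR adjusted p = 0.0046), and Psat1, an enzyme of serine synthesis, showed a smaller fall (-0.34, edgeR adjusted p = 0.0088). Ppp1r15a, which directs a phosphatase to eIF2α, rose by 0.40 (edgeR adjusted p = 0.031) and missed the threshold without AI54, AI56, AI55 or AH74.

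**Figure D4:**
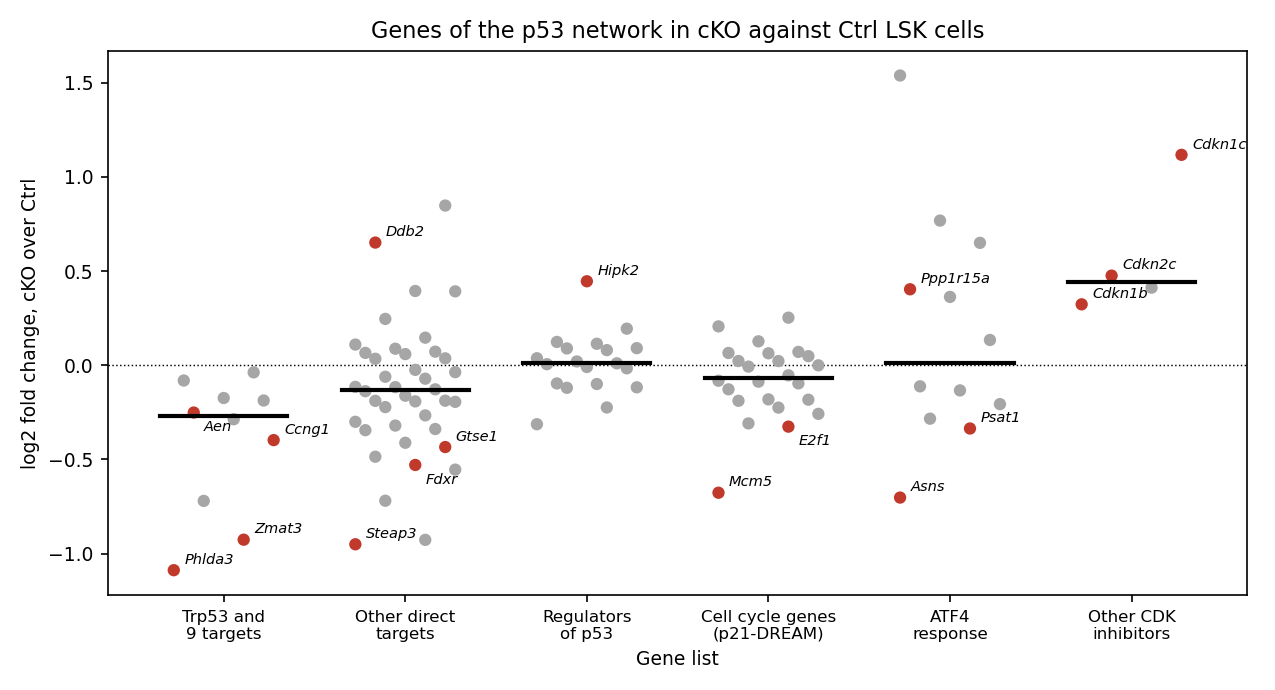
Log2 fold change of libraries labelled cKO over Ctrl for each tested gene (points) of the 6 lists, with the median of a list as a black line and genes past the threshold in red. The medians run from -0.27 for Trp53 and its 9 targets to 0.44 for the other CDK inhibitors, and those of the regulators, the cell cycle genes and the ATF4 response are 0.01, -0.07 and 0.01.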

How the data were processed

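LSK cells of 3 Ctrl and 3 cKO mice were analyzed by RNA-seq. Per the labels and the file header, the authors aligned reads to mm10 with GSNAP and assigned them to Ensembl 81 gene models with featureCounts 1.5.0, strand-specifically and at a mapping quality of at least 1. What they deposited are raw counts for 45706 genes, with summed exon lengths. Symbols came from GENCODE M21, which named 98.8% of the genes.

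Counts were fitted in R 4.3.3 with edgeR 4.0.16 (TMM, filterByExpr at its defaults, quasi-likelihood F-test, genotype alone as a factor, 6 libraries in 1 fit). Adjustment over 15184 genes followed Benjamini and Hochberg at 0.05. The SE was derived from the F statistic, and 95% intervals, from the t quantile of the fit, were not adjusted over genes. Differences within a library series used log2 CPM with a prior count of 2. Each mouse was 1 replicate. The p-values and intervals of edgeR rest on the spread between these mice, estimated for a gene together with that of the other genes (prior degrees of freedom 11.1). Library totals between 13003573 and 21277519 set the counting precision.

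The alternatives were DESeq2 1.42.0 (the study's tool), its size factors in edgeR, omission of the low-count filter, a minimum of 10 counts per library, exclusion of 224 genes (Gm42418, Gm26917 and mitochondrial and ribosomal RNA genes), the library series as a covariate, and leaving out each mouse. The procedure was tested on simulated data without library series and with changes larger than those of Ccng1 and Aen. It therefore does not speak for changes of their size or for the series. Named were all 10 members, Setd1b and, of each further list, up to 5 genes past the threshold, and any others were picked with their values in view. Members and lists were chosen with earlier results of these data known. Some marker genes are not reported here by name.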

Additional observations from a re-analysis of the deposited data

How the results depend on the processing

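The alternatives were run on the counts of genes past the threshold and on 24 single genes. Leaving out 1 mouse at a time kept between 3 and 4 of the 10 genes past the threshold as lower, against 3 with the library series and 5 without the filter on low counts, and none was higher under any of the 12 alternatives. The number of genes past the threshold over all genes lay between 604 and 1125 with a mouse left out, compared with 1164 with all 6, and was 665 without AI56, 604 without AI55 and 739 without AH74, where fewer libraries enter the fit. Of the further direct targets, 3 were lower with all mice, between 1 and 5 with a mouse left out and 5 without the filter on low counts, and 2 instead of 1 were higher with the library series as a covariate. The cause was not tested. The log2 fold change of Cdkn1a ranged from -0.32 to 0.093 with a mouse left out, and that of Trp53inp1 from -0.16 to 0.12, with 0.082 under the library series. Neither was past the threshold in any setting. Over the single genes, 241 comparisons kept direction and side of the threshold, 42 lost the call with the same direction, 1 gained it and 4 turned their sign. No paired analysis was possible because the labels give each mouse its own identifier and do not say which mice are littermates. Depth limits Phlda3 and Eda2r most, with as few as 46 counts in a library.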

Other observations

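Among the further direct targets, the genes that promote apoptosis, a subset formed after the values had been seen, had fitted log2 fold changes below 0 in 8 of 8 cases (median -0.29), beside 49.9% of all genes, and none passed the threshold of edgeR or of DESeq2. At an unadjusted p under 0.05, 2 of the 8 were lower, beside 11.5% of all genes, and a subset formed this way supports nothing by its count. The sign of Perp turned with the library series as a covariate (0.095) and ranged from -0.51 to 0.14 with a mouse left out. Bax, an effector of mitochondrial permeabilization, had 19.97, 20.4 and 19.2 CPM in Ctrl and 16.1, 16.6 and 14.9 CPM in the libraries labelled cKO, without overlap between the groups (log2 fold change -0.32, SE 0.12, edgeR adjusted p = 0.11). For Pmaip1 (Noxa) the log2 fold change was -0.72 (edgeR adjusted p = 0.088), with cKO mouse AI02 at 7.17 CPM within the Ctrl range of 6.58 to 10.2 CPM. Fas, a death receptor, stayed under 3.15 CPM in every library (-0.93, edgeR adjusted p = 0.23).

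Of the 4 DNA repair genes of the same list, a subset formed in the same way, Ddb2 was higher, beside 3.88% of all genes. Rrm2b (0.25), Xpc (-0.12) and Polk (-0.04) were not past the threshold. Of 5 tested metabolic targets, also a subset formed in this way, Fdxr was lower, beside 3.79% of all genes. The other 4, which missed the threshold, ranged from 0.04 to 0.11 in log2 fold change.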
